A study of Mus musculus with 8 samples.

Results

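Genes of neutral lipid storage and breakdown were followed in cultured primary palatal mesenchyme from mouse embryos that lack a TGF-beta receptor in the neural crest. The 10 genes were Lipe, Pnpla2, Mgll, Abhd5, G0s2, Plin2, Plin3, Hilpda, Lipa and Cidec, named for their known place in lipolysis and on the lipid droplet. These genes and the lists below were chosen with earlier results of these data known. Their counts beside the shares of all genes are therefore a description. The members are 10 of the 18193 genes that the arrays measured, read by 19 of the 45101 probe sets. Each gene had 1 to 4 probe sets, and 5 genes had only 1. The main value of a gene is its brightest probe set by mean, and all other probe sets are given beside it where they differ.

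Mutant samples had the genotype Tgfbr2 fl/fl; Wnt1-Cre and control samples Tgfbr2 fl/fl, all on strain C57BL/6J. By these genotypes the floxed alleles are shared by all cultures and the groups differ in Cre. The titles of the control samples, however, call their mouse model Tgfbr2 wildtype. Wnt1-Cre acts in the cranial neural crest lineage, so cells of another origin in the culture, such as macrophages, keep the receptor gene. Cells were taken at embryonic day 13.5, grown in standard medium and collected after 2 passages, with 4 arrays per genotype. The labels do not say whether each sample came from its own embryo or a pool, and p-values therefore cover only the spread among the 8 cultures, some of which may be technical. The question of the study was how loss of TGF-beta signalling acts on metabolism in the palate.

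A lipid droplet is a core of triglyceride and sterol ester under a single layer of phospholipid and coat proteins. Cytosolic lipolysis removes the fatty acids of a triglyceride in turn: ATGL (Pnpla2) takes the first, hormone-sensitive lipase (Lipe) acts on the diglyceride, and monoglyceride lipase (Mgll) on the monoglyceride. ABHD5 is the co-activator of ATGL, while G0S2 and HILPDA are small proteins that inhibit it. Perilipins 2 and 3 (Plin2, Plin3) coat droplets in most cell types, CIDEC helps droplets fuse in fat cells, and lysosomal acid lipase (Lipa) splits neutral lipids that reach the lysosome. Macrophages also store and break down neutral lipid.

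The upstream sequences of genes that the results turn on are shown first, since Hilpda is known as a hypoxia-induced gene and several matches to the core of the hypoxia-response element lie in front of it. Each sequence is the run of 250 bases before a transcript start in RefSeq (build GRCm38.p6), written 5′ to 3′ on the strand of the gene, and capitals mark the HIF core, ACGTG or GCGTG on either strand. All 10 genes matched the RefSeq table, with 14 such windows.
Hilpda, chr6:29272376-29272625, plus strand: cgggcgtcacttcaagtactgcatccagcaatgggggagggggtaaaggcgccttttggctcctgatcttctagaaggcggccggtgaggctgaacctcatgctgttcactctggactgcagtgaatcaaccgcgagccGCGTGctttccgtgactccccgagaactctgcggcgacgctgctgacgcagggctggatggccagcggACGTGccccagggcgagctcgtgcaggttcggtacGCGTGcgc
Mgll, chr6:88724454-88724703, plus strand: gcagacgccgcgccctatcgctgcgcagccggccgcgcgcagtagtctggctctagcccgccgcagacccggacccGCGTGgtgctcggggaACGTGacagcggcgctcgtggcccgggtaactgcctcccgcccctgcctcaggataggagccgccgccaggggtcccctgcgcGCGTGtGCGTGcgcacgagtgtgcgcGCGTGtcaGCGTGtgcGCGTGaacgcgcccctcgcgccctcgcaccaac
G0s2, chr1:193273189-193273438, minus strand: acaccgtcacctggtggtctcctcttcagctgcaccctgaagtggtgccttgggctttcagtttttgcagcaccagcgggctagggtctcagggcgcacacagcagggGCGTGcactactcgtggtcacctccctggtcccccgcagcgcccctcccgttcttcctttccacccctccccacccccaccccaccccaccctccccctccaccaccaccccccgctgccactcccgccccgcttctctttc
Lipe, chr7:25395988-25396237, minus strand: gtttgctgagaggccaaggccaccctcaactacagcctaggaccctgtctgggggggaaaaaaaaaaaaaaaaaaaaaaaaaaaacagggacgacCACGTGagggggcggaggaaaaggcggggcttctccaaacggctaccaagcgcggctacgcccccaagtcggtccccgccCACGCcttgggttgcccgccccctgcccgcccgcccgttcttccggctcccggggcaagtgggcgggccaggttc
The HIF core was present in 8 of the 14 windows, against 38.6% of the 32851 windows of all genes. By gene it was present in 7 of the 10, some of which have more than 1 window, and no share over genes was computed. All windows shown hold a match, and the other Lipe window held none. In the Hilpda window shown, 3 matches began at -111, -43 and -8 relative to the start, while the window of its other annotated start held none. The E-box CACGTG, which the TFEB family of lysosome regulators can bind, contains the HIF core. This E-box occurred in 1 window each of Lipe and Mgll, for Mgll the one not shown, and in 6.02% of all windows. The direct repeat bound by PPAR with RXR, the repeated SMAD box (GTCTAGAC) and a PU.1 site (GAGGAAGT) had 0 matches on either strand in the 14 windows, against 0.0335%, 0.167% and 2.44% of all windows. A match is only a run of letters in these windows.

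Before the comparison, some features of the arrays matter. Tgfbr2 read 11.73 to 12.76 in mutant and 11.66 to 12.40 in control arrays (log2 intensity, adjusted p = 0.538 in limma), and whether its probes read the deleted exons was not examined here, so the genotypes rest on the labels. Of 21 markers of palatal mesenchyme, 17 lay above the median of all probe sets (6.93) on all 8 arrays, although the palate regulator Osr2 read only 6.45 to 6.91 in mutant and 6.22 to 6.91 in control arrays. Of 14 measured fat cell markers 7 did so, and the fat cell hormone gene Adipoq read at most 4.90 in mutant and 5.01 in control arrays. The macrophage mean, the average log2 intensity of Ctss, Tyrobp and Fcer1g, was 14.34, 14.29, 14.40 and 12.86 in mutants 1 to 4, against 13.78, 13.93, 12.74 and 12.47 in controls 1 to 4. The arrays thus formed separate clusters, 5 between 13.78 and 14.40 and 3 between 12.47 and 12.86, the low ones being mutant 4 and controls 3 and 4. Its mean was 13.97 ± 0.74 in mutant and 13.23 ± 0.73 in control arrays (SD, n = 4 each; exact two-sided permutation p = 0.171, where 0.0286 is the smallest such a design can give). All 21 genes of a wider macrophage list had positive differences, and 20 read above that median on each of the 8 arrays. These genes are not independent, and the mean of that list differed by 0.92 (exact two-sided permutation p = 0.2). The bioB hybridisation controls divide the arrays into replicates 1 and 2 (6.34 to 6.52) and replicates 3 and 4 (8.24 to 8.79) of both genotypes. These sets are called the first and second hybridisation batch here, inferred from the controls alone, since the labels name no batch. Every array of the first hybridisation batch is in the high macrophage cluster, and mutant 3 is the only array of the second batch that is. Control 3 had an Xist level of 11.48, against 6.24 to 6.59 in mutant arrays and 5.93 to 6.36 in the other controls, and sex is not among the labels.

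None of the 10 genes passed the test between mutant and control cells, limma with Benjamini-Hochberg adjustment over all genes at 0.05, which called 0.0879% of all genes (0.0220% higher and 0.0660% lower in mutant cells). These were 16 genes, 4 higher and 12 lower in mutant cells, and 12 genes, 1 higher and 11 lower, with each array centred on its median. At an unadjusted p under 0.05, Lipe was above and Mgll, Hilpda and Abhd5 below control levels, 4 of 10 genes where 15.5% of all genes reached that level. In the direction of higher values this was 1 of 10 against 5.84%, and in the direction of lower values 3 of 10 against 9.69%. The groups did not overlap for 1 of the 10 genes, Lipe, against 8.07% of all genes (2.89% with the mutant arrays higher and 5.18% with them lower). The median difference of the 10 was -0.04 on the log2 scale, with 5 positive and 5 negative, against -0.008 over all genes tested. In these bulk cultures, fewer cells of a type and less RNA per cell cannot be told apart.

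**Figure D1:**
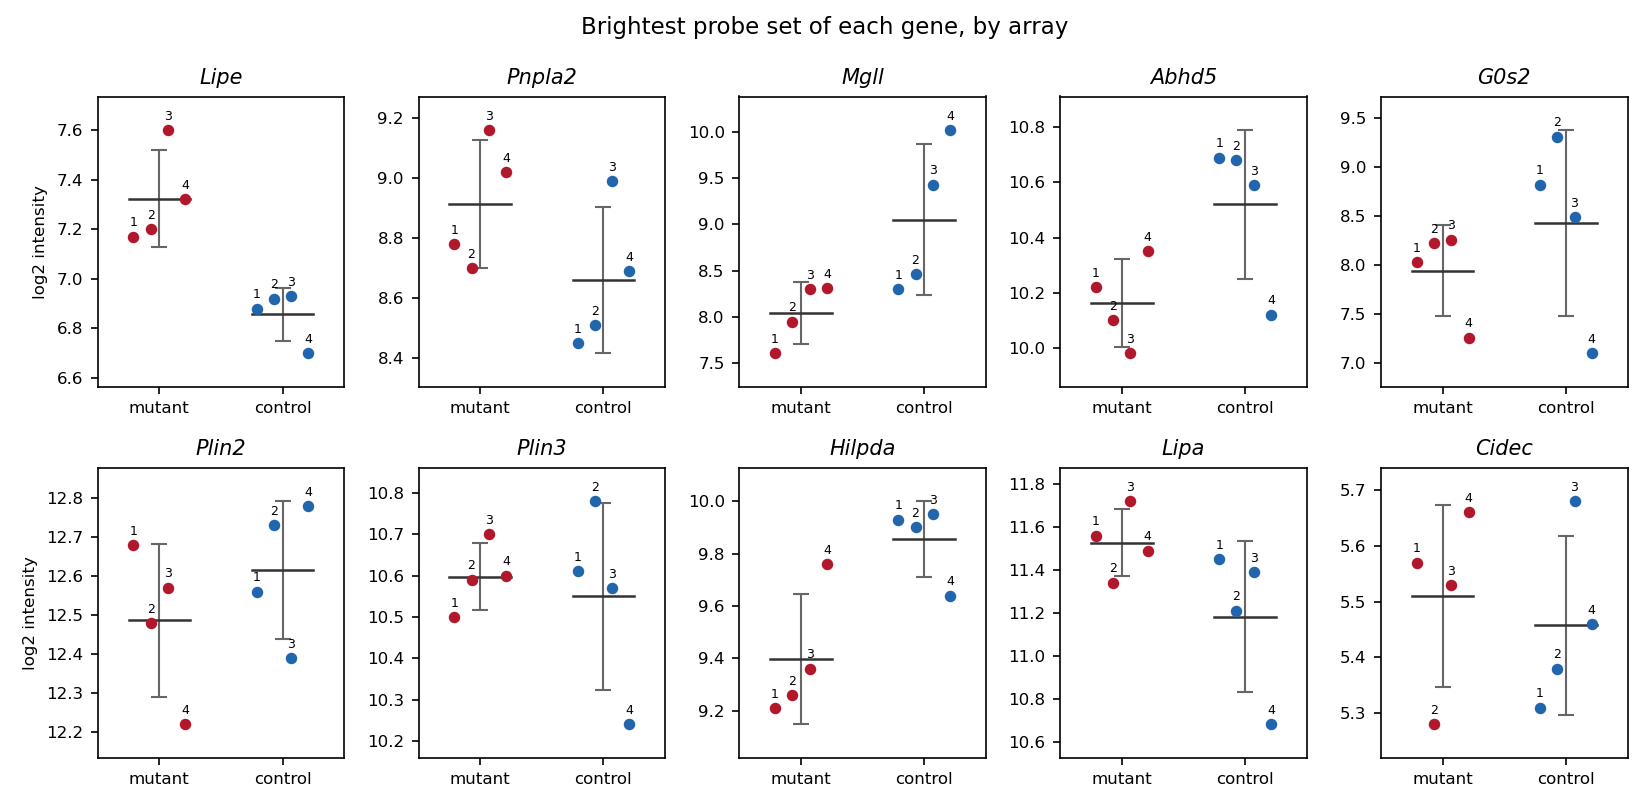
Log2 intensity (vertical axes, each with its own range) of the brightest probe set of the 10 genes in the 4 mutant arrays (red, left) and the 4 control arrays (blue, right), with replicate numbers beside the points, horizontal lines at the group means and bars of 1 SD. Lipe is the only gene whose mutant and control points do not overlap, and control 4 is the lowest control for Lipe, G0s2, Hilpda, Abhd5, Lipa and Plin3.

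Among the cytosolic lipases, Lipe and Mgll differed in opposite directions. Lipe read 7.17, 7.20, 7.60 and 7.32 in mutants 1 to 4, against 6.88, 6.92, 6.93 and 6.70 in controls 1 to 4. Every mutant array was thus above every control array, at levels around the median probe set. Its log2 difference was 0.46 (SE 0.11, 95% interval 0.21 to 0.72, adjusted p = 0.187 in limma), a 1.38-fold ratio. It was 0.28 in the first hybridisation batch and 0.64 in the other. A second, dim Lipe probe set read 4.91 to 5.30 in mutant and 4.99 to 5.20 in control arrays and showed no such separation.

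Mgll, which takes the last fatty acid from the glycerol, had the largest difference of the 10. Its brightest probe set read 7.61, 7.95, 8.30 and 8.31 in mutants 1 to 4, against 8.30, 8.46, 9.43 and 10.02 in controls 1 to 4. The means were 8.04 ± 0.33 in mutant and 9.05 ± 0.81 in control arrays (SD, n = 4 each), and the controls spread more widely, with controls 3 and 4 the highest. The difference was -1.01 (SE 0.38, 95% interval -1.87 to -0.15, adjusted p = 0.269 in limma). It was -0.60 in the first hybridisation batch, -1.42 in the other and -0.69 without control 4.

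Of the other Mgll probe sets, 2 differed like the first and 1 did not. The second read 7.25 to 7.90 in mutant and 8.19 to 10.10 in control arrays, with no overlap and a difference of -1.34 (SE 0.39, adjusted p = 0.219 in limma on all 45037 probe sets, which called 0.00222% of them). The third read 6.53 to 6.92 in mutant and 7.00 to 9.08 in control arrays, again with no overlap and a difference of -1.10 (SE 0.41). The fourth read 7.14 to 7.38 in mutant and 7.12 to 7.28 in control arrays, with a difference of 0.09 (SE 0.08). The third and the fourth were about equally bright, with means of 7.23 and 7.22, and which transcripts each probe set reads was not examined.

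Pnpla2, the enzyme of the first step, read 8.78, 8.70, 9.16 and 9.02 in mutants 1 to 4, against 8.45, 8.51, 8.99 and 8.69 in controls 1 to 4. The groups overlapped, with control 3 above mutants 1 and 2. The difference was 0.25 (SE 0.15, 95% interval -0.08 to 0.59, adjusted p = 0.44 in limma), and 0.26 and 0.25 within the hybridisation batches. With that batch as a block the Pnpla2 difference had an unadjusted p of 0.0167 and an adjusted p of 0.153 in limma. In that fit 4012 of 18193 genes, and 5 of the 10 genes here, had an unadjusted p under 0.05. Its second probe set was dim on every array (5.78 to 6.08 in mutants, 5.66 to 5.91 in controls).

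**Figure D2:**
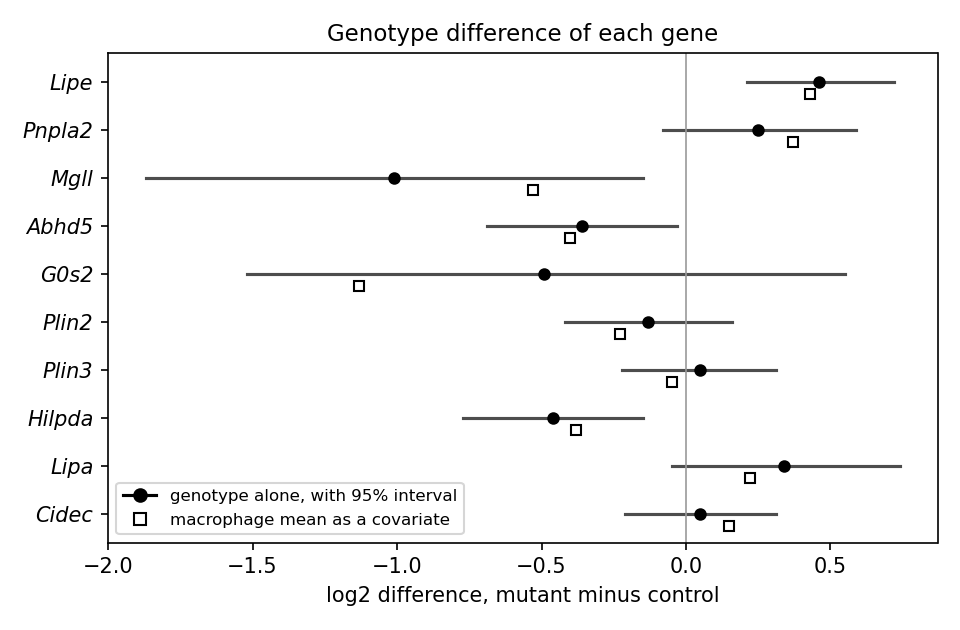
Log2 difference, mutant minus control (horizontal axis), of the brightest probe set of each gene, with circles and 95% intervals from the limma fit on genotype alone and open squares from the fit that adds the macrophage mean. The intervals of Lipe, Mgll, Abhd5 and Hilpda leave out 0 before adjustment, and the G0s2 value is -0.49 with genotype alone and -1.13 with the covariate.

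The genes of the ATGL co-activator and of both inhibitors had negative differences, none past the threshold, and the 95% interval of G0s2 ran from -1.52 to 0.55. Hilpda, an ATGL inhibitor known as a hypoxia-induced gene, read 9.21, 9.26, 9.36 and 9.76 in mutants 1 to 4, against 9.93, 9.90, 9.95 and 9.64 in controls 1 to 4. Mutants 1 to 3 were below every control, and mutant 4 was above control 4. The difference was -0.46 (SE 0.14, 95% interval -0.77 to -0.15, adjusted p = 0.202 in limma). It was -0.68 in the first hybridisation batch and -0.24 in the other. Without mutant 4, the mutant array lowest in macrophage genes, Hilpda differed by -0.58 and passed (adjusted p = 0.0234 in limma). That fit called 1316 genes, 7.23% of all.

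Abhd5, the co-activator, read 10.22, 10.10, 9.98 and 10.35 in mutants 1 to 4, against 10.69, 10.68, 10.59 and 10.12 in controls 1 to 4. Controls 1 to 3 were above every mutant, and control 4 lay among the mutant values. The difference was -0.36 (SE 0.14, 95% interval -0.69 to -0.03, adjusted p = 0.292 in limma), and -0.53 and -0.19 within the hybridisation batches. A second bright probe set differed by -0.31 (SE 0.16), and a further, dim one, read at 4.22 or less on all arrays, by -0.01.

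G0s2, the other ATGL inhibitor, had the largest SD of the 10 genes in either genotype. It read 8.03, 8.22, 8.26 and 7.26 in mutants 1 to 4, against 8.82, 9.31, 8.49 and 7.10 in controls 1 to 4. The lowest array of each genotype was replicate 4, and the groups overlapped. The difference was -0.49 (SE 0.45, 95% interval -1.52 to 0.55, adjusted p = 0.639 in limma), with -0.94 in the first hybridisation batch and -0.03 in the other. It was -0.93 without control 4, -0.26 without mutant 4 and -0.19 without control 2, none past the threshold.

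Droplet coat genes lay close together in the genotypes. Plin2, the main coat protein outside fat cells, was bright everywhere, at 12.22 to 12.68 in mutant and 12.39 to 12.78 in control arrays. Its difference was -0.13 (SE 0.13, 95% interval -0.42 to 0.16). Plin3 read 10.50 to 10.70 in mutant and 10.24 to 10.78 in control arrays, with a difference of 0.05 (95% interval -0.22 to 0.31) that was -0.15 in the first hybridisation batch and 0.24 in the other. Cidec was below the median probe set on all 8 arrays, at 5.28 to 5.66 in mutants and 5.31 to 5.68 in controls, so its difference of 0.05 says little about that gene.

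Lipa, the lysosomal lipase, was read by 3 bright probe sets that did not follow 1 pattern. The brightest read 11.56, 11.34, 11.72 and 11.49 in mutants 1 to 4, against 11.45, 11.21, 11.39 and 10.68 in controls 1 to 4. Control 4 was the lowest array, and the difference was 0.34 (SE 0.17, 95% interval -0.05 to 0.74, adjusted p = 0.377 in limma), or 0.18 without control 4. The second probe set differed by 0.09 (SE 0.23), with control 4 again the lowest at 9.54. The third read 10.23, 9.87, 8.96 and 8.37 in mutants 1 to 4, against 9.84, 9.50, 8.22 and 8.36 in controls 1 to 4, with a difference of 0.38 (SE 0.50). Leaving out 1 array moved that difference between 0.09 (without mutant 1) and 0.71 (without mutant 4). The level of this probe set was thus higher in replicates 1 and 2 than in replicates 3 and 4 of either genotype, the division that the hybridisation controls also make.

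**Figure D3:**
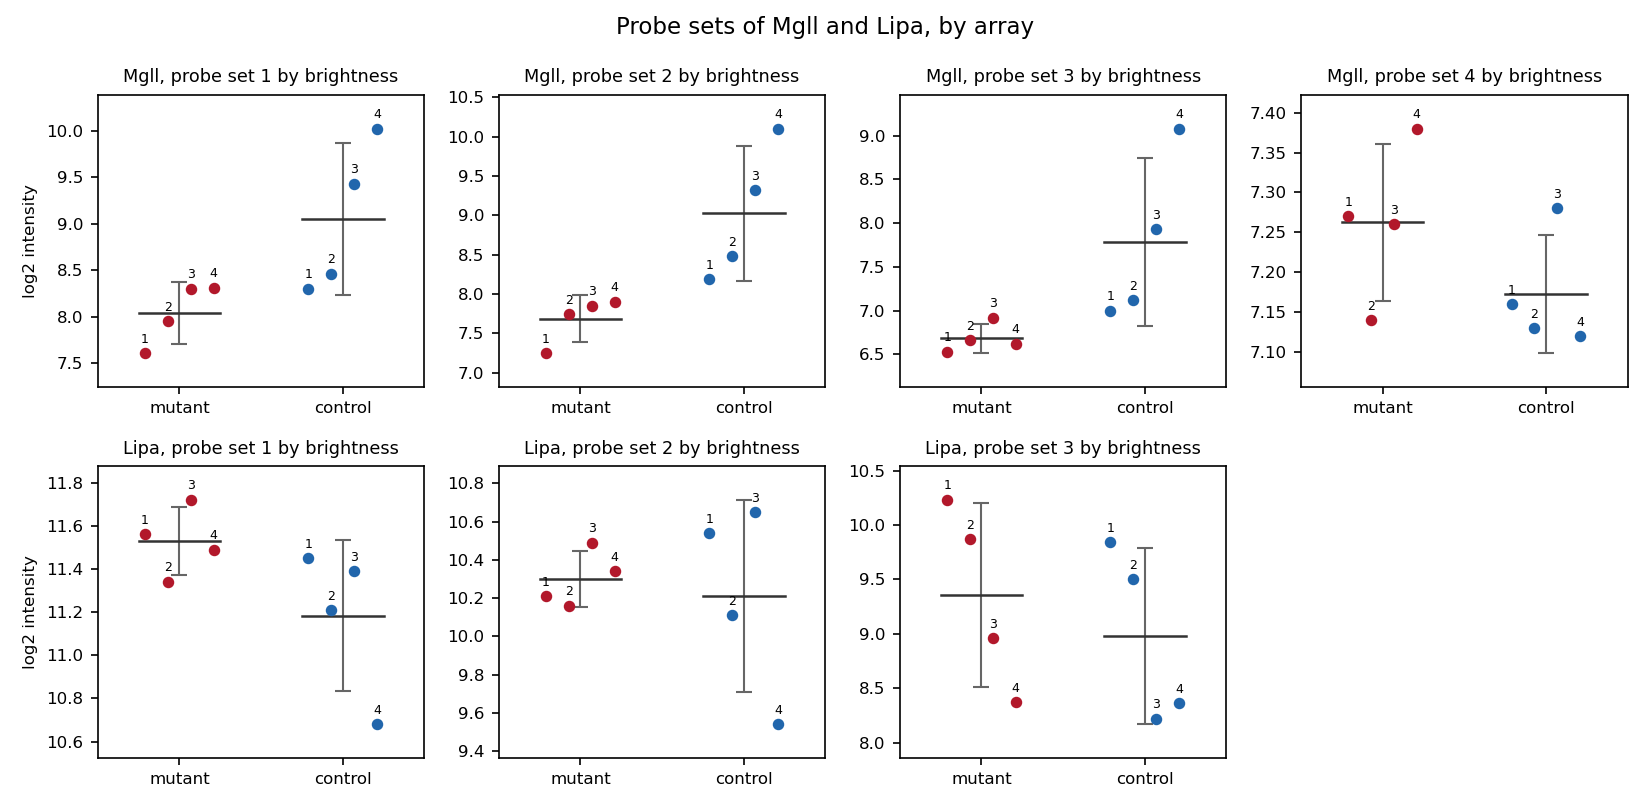
Log2 intensity (vertical axes, each with its own range) of the 4 Mgll probe sets (top) and the 3 Lipa probe sets (bottom), ordered by brightness, in mutant arrays (red, left) and control arrays (blue, right), with replicate numbers, group means and bars of 1 SD. The first 3 Mgll probe sets differ by -1.01, -1.34 and -1.10 and the fourth by 0.09, and the third Lipa probe set separates replicates 1 and 2 from 3 and 4.

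Each gene was next related to the macrophage content of its array. Because the arrays formed separate clusters of the macrophage mean, too small for a correlation within either, no correlation over the 8 arrays is given. The slope on the macrophage mean, with genotype in the limma fit, was used instead, in log2 units of the gene per log2 unit of the macrophage mean. This slope rests on the contrast between the clusters, and so on mutant 4 among the mutants, and it largely runs with the hybridisation batch. It passed the adjusted threshold for 1 of the 10 genes, G0s2, while 13.8% of all genes passed, and for 2 of 10 at an unadjusted p under 0.05, against 30.6% of all genes.

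G0s2 rose with macrophage content within genotypes, with a slope of 0.87 (SE 0.19, adjusted p = 0.0221 in limma). Mutant 4 read 7.26 and the other mutants 8.03 to 8.26, and controls 3 and 4 read 8.49 and 7.10 and the other controls 8.82 and 9.31. The slope of G0s2 was 0.89 without control 1 (adjusted p = 0.0535 in limma) and 0.77 without control 2 (adjusted p = 0.0843), neither past the threshold. The G0s2 slope was 0.63 with the wider macrophage list (adjusted p = 0.0501 in limma), 0.89 with the hybridisation batch as a block (adjusted p = 0.192) and 0.48 without a genotype term (adjusted p = 0.279). With the replicate numbers as a block the G0s2 slope was 0.26 (adjusted p = 0.944 in limma). At a given macrophage mean the genotype difference was -1.13 (SE 0.28, adjusted p = 0.16 in limma), short of the threshold.

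Mgll ran the other way, with a slope of -0.65 (SE 0.19, adjusted p = 0.064 in limma). Controls 3 and 4, low in macrophage genes, read 9.43 and 10.02, against 8.30 and 8.46 in controls 1 and 2. Mutant 4, about as low in macrophage genes, read 8.31, close to the 8.30 of mutant 3, which had the highest macrophage mean. Without mutant 4 the Mgll slope was -1.07 and passed (adjusted p = 0.0239 in limma), resting then on the controls, and it also passed without mutant 3 (-0.75, adjusted p = 0.0243), without a genotype term (-0.83, adjusted p = 0.0187 in limma) and with array weights (-0.72, adjusted p = 0.0245). With the hybridisation batch as a block the Mgll slope was -0.23 (adjusted p = 0.737 in limma). The difference between slopes of the genotypes was not tested. At a given macrophage mean Mgll differed between the genotypes by -0.53 (SE 0.29, adjusted p = 0.371 in limma).

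For the third probe set of Lipa the slope was 0.94 and passed (adjusted p = 0.033 in limma on all probe sets), whereas the first read 0.16 (SE 0.13) and the second 0.11. The call on the third probe set of Lipa ended without mutant 1, 2 or 4 or control 1, 2 or 3, at slopes of 0.86, 0.92, 1.01, 0.86, 0.99 and 0.88. With the hybridisation batch as a block that slope was 0.30 (adjusted p = 0.445 in limma). The choice of probe set therefore decides whether Lipa is read as running with macrophage genes.

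The other slopes were smaller: 0.05 for Lipe, -0.16 for Pnpla2, 0.06 for Abhd5, 0.13 for Plin2, 0.13 for Plin3, -0.11 for Hilpda and -0.14 for Cidec, with adjusted p from 0.249 to 0.766 in limma. Plin2 passed without control 4, with a slope of 0.24 (adjusted p = 0.0494 in limma). The Lipe difference was 0.43 (SE 0.13) with the macrophage mean as a covariate, against 0.46 without it. The Hilpda difference was -0.38 (SE 0.15) with it, against -0.46 without. Neither passed with the covariate, where 0.0879% of all genes were called.

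**Figure D4:**
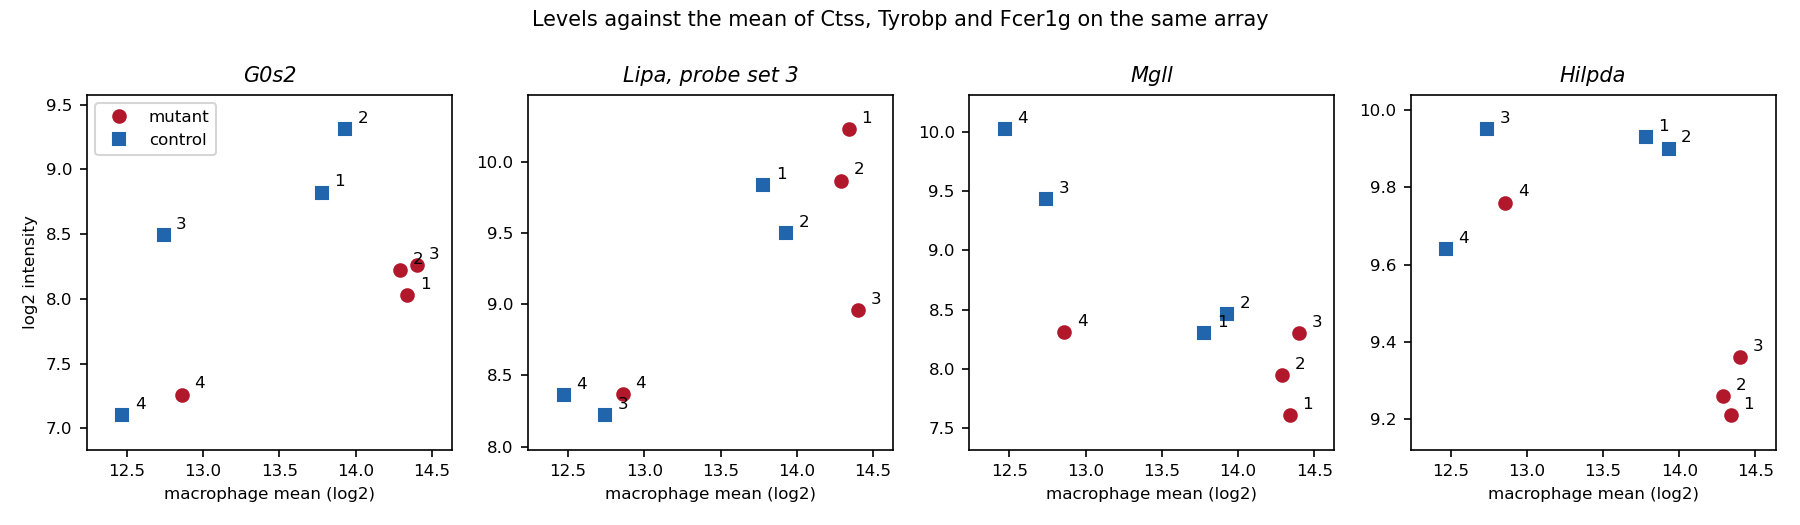
Log2 intensity (vertical axes) of G0s2, the third Lipa probe set, Mgll and Hilpda against the macrophage mean of the same array (horizontal axes, average log2 intensity of Ctss, Tyrobp and Fcer1g) for mutant arrays (red circles) and control arrays (blue squares), numbered by replicate. Mutant 4 and controls 3 and 4 lie at 12.47 to 12.86 on the horizontal axes, mutant 4 reads 7.26 for G0s2 and 8.31 for Mgll, and controls 3 and 4 read 9.43 and 10.02 for Mgll.

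Other genes of the pathway were taken from lists of known function, chosen with earlier results of these data known. None of them passed the genotype test on all 8 arrays. The counts that follow are at an unadjusted p under 0.05 in limma, the level that 5.84% of all genes reached with higher and 9.69% with lower values in mutant cells, and the median difference of all genes was -0.008. The 3 genes with the smallest p of each list are named, 21 in all. Of these, 9 passed the adjusted threshold without mutant 4 (7.23% of all genes did) and 11 with array weights (8.08%). Within the first hybridisation batch, replicates 1 and 2 only, 12 passed (11.5% of all genes did). These genes were picked by the same contrast, so the counts are a description. Of 26 measured genes of droplet coats and droplet formation, 2 were higher and 4 lower (median difference 0.03). Fitm2, which helps droplets form at the endoplasmic reticulum, differed by -0.32 (SE 0.12), and the droplet enzyme gene Hsd17b11 by 0.38 (SE 0.14). Faf2, which recruits the degradation machinery to droplets, differed by -0.26 (SE 0.09). Of 21 other neutral lipases and hydrolases, 3 were higher and 0 lower (median 0.13), 16 with a positive difference, as had 8795 of all 18193 genes. Among them Pnpla7, a lysophospholipase of the ATGL family, differed by 0.84 (SE 0.35) and Abhd12, another hydrolase, by 0.59 (SE 0.26). Both rose with the macrophage mean, with slopes of 0.76 for Pnpla7 and 0.52 for Abhd12 (adjusted p = 0.00193 and 0.00889 in limma), and at a given macrophage mean they differed by 0.29 and 0.21. The carboxylesterase gene Ces1d differed by 0.25 (SE 0.07), at 5.11 to 5.25 in mutant and 4.87 to 5.04 in control arrays, far below the median probe set.

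Triglyceride synthesis (16 measured genes, median -0.10) had 1 gene higher and 2 lower at that level. Gpat3, which adds the first acyl chain to glycerol phosphate, differed by -0.61 (SE 0.15), at 6.72, 7.00, 6.50 and 6.86 in mutants 1 to 4, against 7.42, 7.04, 7.50 and 7.56 in controls 1 to 4. Every mutant array of Gpat3 was below every control array. The phosphatidate phosphatase genes Lpin1 and Lpin2 differed by -0.39 (SE 0.16) and 0.56 (SE 0.21). Lpin2 had a slope of 0.39 that passed (adjusted p = 0.0292 in limma) and differed by 0.27 at a given macrophage mean. In a list of 25 measured genes drawn up for signals that act on lipolysis (median -0.10), 3 were higher and 1 lower. Pde3b, which breaks down the cyclic AMP that activates hormone-sensitive lipase, differed by 0.48 (SE 0.15), and by 0.26 at a given macrophage mean, with a slope of 0.30 that passed (adjusted p = 0.00978 in limma). Prkar2b, a regulatory subunit of the cyclic AMP-dependent kinase, differed by 0.66 (SE 0.21). The 1 lower gene was Fap, a fibroblast protease, at -0.58 (SE 0.21), and whether it acts on lipolysis here was not tested.

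Lysosomal lipid handling (19 genes, median 0.10) had 2 genes higher and 0 lower. The lysosome regulator gene Mitf differed by 0.86 (SE 0.33), the lipid transfer protein gene Gm2a by 0.54 (SE 0.20) and the sterol carrier gene Npc2 by 0.13 (SE 0.07). Slopes on the macrophage mean passed for 7 of these 19 genes, all rising, among them Mitf (0.64) and Gm2a (0.39), against 7.37% of all genes rising. At a given macrophage mean Mitf differed by 0.39 and Gm2a by 0.25. PPAR factors and their targets (18 genes, median -0.01) had 0 genes higher and 1 lower. That gene was Angptl4, an inhibitor of lipoprotein lipase, which read 8.24, 8.21, 7.61 and 10.82 in mutants 1 to 4, against 10.30, 10.02, 11.13 and 10.13 in controls 1 to 4. Mutants 1 to 3 were the lowest arrays and mutant 4 was among the controls, and the difference was -1.67 (SE 0.65). The coactivator gene Ppargc1b differed by 0.67 (SE 0.33) and the fatty acid transporter gene Cd36 by 0.92 (SE 0.48). The slopes of Ppargc1b and Cd36 on the macrophage mean passed (0.65 and 0.91, adjusted p = 0.0198 and 0.0238 in limma), and at a given macrophage mean they differed by 0.19 and 0.25. Of the 21 named genes, 8 had slopes that passed, all 8 rising, against 7.37% of all genes rising and 6.45% falling. The named genes were picked by the genotype contrast, and the macrophage mean itself differed by 0.74 between the genotypes. This count is therefore a description.

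Hypoxia-induced genes, the company in which Hilpda is known, had a median of -0.48 over 15 genes, 12 of them negative, with 1 higher and 5 lower at an unadjusted p under 0.05 in limma. Over all genes the median was -0.008, 9398 of 18193 were negative, and 5.84% were higher and 9.69% lower at that level. Ankrd37 read 7.99, 7.96, 8.03 and 8.48 in mutants 1 to 4, against 8.74, 8.71, 8.94 and 8.45 in controls 1 to 4. As for Hilpda, mutants 1 to 3 were below every control and mutant 4 was just above control 4. The difference was -0.59 (SE 0.15) for Ankrd37, -0.79 (SE 0.21) for the collagen prolyl hydroxylase gene P4ha1 and -0.53 (SE 0.17) for the mitochondrial gene Higd1a. Without mutant 4 all 3 passed in limma, Ankrd37 at -0.71 (adjusted p = 0.0219), P4ha1 at -1.02 (adjusted p = 0.00807) and Higd1a at -0.71 (adjusted p = 0.0186). Angptl4 also passed in that limma fit, at -2.37 (adjusted p = 0.0136). The fit called 1316 of 18193 genes (7.23%), against 16 on all 8 arrays, and these genes had been picked by the same contrast. The array mean of the list ran from 10.23 to 10.82 in mutants, highest in mutant 4, and from 10.52 to 10.88 in controls. Slopes on the macrophage mean passed for 2 rising and 4 falling genes of the list, against 7.37% and 6.45% of all genes. The mutant arrays with lower hypoxia-induced genes were also those with macrophage means of 14.29 to 14.40, and at a given macrophage mean the differences were -0.49 for Ankrd37, -0.56 for P4ha1 and -0.34 for Higd1a, none past the threshold.

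Likeness of pattern was measured as Pearson's r of log2 intensities over the 8 arrays, which share 2 genotypes and the clusters above, among 12187 genes above the median probe set. The genes most like Lipe were Tnfsf13b (r = 0.98), Pip4p1 (0.97) and 1110020A21Rik (0.97). Those most like Hilpda were Mkx (r = 0.98), Zfp637 (0.98) and Spin2c (0.98). G0s2 was most like Fam117a, Natd1 and Serpinb1a (r = 0.97 each), and Mgll most like Lrp11, Med29 and Trav9d-3 (r = 0.99 each). The best of so many genes over 8 arrays is high for any pattern, so these names are a description only.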

How the data were processed

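Total RNA was labelled with biotin and read on Affymetrix mouse arrays, per the labels' protocols. The authors deposited 1 log2 intensity for each probe set and array, computed with RMA per the submitters' processing notes; its version and a genome build are not given in the sources used here. They run from 3.21 to 15.18 and were used without further scaling. Probe sets were named from the platform annotation: 34945 had 1 gene symbol, 932 several and 9160 were not listed, and 64 were array controls. Symbols of 34741 were matched by Entrez identifier to RefSeq. Each gene is its brightest probe set by mean, and probe sets with several symbols were left out.

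Differences (mutant minus control) and slopes on the macrophage mean (with genotype in the fit) came from limma 3.58.1 in R 4.3.3 (lmFit, eBayes, two-sided), adjusted with Benjamini-Hochberg over all genes, or over all probe sets for further probe sets. SE and 95% intervals are limma's moderated, unadjusted ones. The procedure was tested on simulated data. Their noise was drawn independently for each gene and without batches, so that test does not cover the batches of these arrays. The genes and lists were chosen with earlier results of these data known. Named pathway genes are, per list, those past the threshold and the 3 next smallest p; for likeness, the 3 highest r. Hybridisation and labelling batches, which the labels do not name, were split at the largest gap of the bioB and poly-A controls. The number of arrays limits the precision. Alternatives covered normalisation, probe set choice, dim genes, variance model, array weights, blocks, macrophage covariates and each array left out.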

Additional observations from a re-analysis of the deposited data

Results flagged for a closer look

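Single arrays stood apart from the other 3 of their genotype in 8 of the 66 groups of 4 arrays examined, where chance gives about 5%; the genes are not independent, and several of these cases are the same array. Mutant 4 was far below the other mutants in the macrophage mean (12.86, against 14.29 to 14.40), in Pnpla7 (7.92, against 9.30 to 9.45) and in Pde3b (9.87, with the nearest mutant at 10.38), and above them in Ankrd37 (8.48, with the nearest mutant at 8.03). Control 4 was below the other controls in Hilpda (9.64, against 9.90 to 9.95) and in Faf2 (9.50, against 9.60 to 9.61). Prkar2b read 10.31 in mutant 3, against 10.95 to 10.98 in the other mutants, and the dim gene Ces1d read 5.11 in mutant 2, against 5.23 to 5.25.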

How the results depend on the processing

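With 4 arrays per genotype, counts moved widely with single arrays and batches. The count of lipase and droplet genes past the genotype threshold stayed 0 of 10 except in the settings named next. With each array left out in turn it was 0 to 1. With array weights 3 passed (Lipe 0.39, Abhd5 -0.50 and Hilpda -0.60). Within the first hybridisation batch 4 passed (Mgll -0.60, Abhd5 -0.53, G0s2 -0.94 and Hilpda -0.68). That fit holds only replicates 1 and 2 of each genotype, whose macrophage means were 14.34 and 14.29 in mutants, against 13.78 and 13.93 in controls. All genes past the threshold numbered 16, and 1470 with array weights, 2085 in the first hybridisation batch alone and 0 in the other (947 at an unadjusted p under 0.05 in limma). They were 3 with the most variable probe set, 2 with the labelling batch as a block, 35 with the wider macrophage list as a covariate, and 0 to 1316 (without mutant 4) with 1 array left out, with 31 without control 4 and at most 2 without any other. Whether the numbers of the labels pair the arrays is not settled: same-numbered arrays deviated from their group means with correlations of 0.47, 0.42, -0.09 and 0.37 over all genes, 3 of the 4 positive, but they also share hybridisation batches, and no mutant was closest to its own number, so the block was not used. With the replicate block 0 genes passed for genotype in limma (3828 at an unadjusted p under 0.05) and 0 for the slope (1522), with 0 of the 10 genes for either. The G0s2 slope was then 0.26 (adjusted p = 0.944), the Mgll slope -0.10 (adjusted p = 0.981) and the Pnpla2 difference 0.25 (unadjusted p = 0.0143, adjusted p = 0.16). For the slope, 2 of the 10 passed with the mean of all probe sets, with the most variable probe set and with array weights. In those settings 2376, 2651 and 2928 of 18190 genes passed, against 2513 in the main fit. With the hybridisation batch as a block 0 of the 10 passed (857 genes in all). With the wider macrophage list as the measure 0 passed (2520 genes in all), and with 1 array left out 0 to 2 (1072 to 3129 genes in all). The macrophage mean differed by 0.49 to 1.11 with 1 array left out, and by 0.46 and 1.02 within the hybridisation batches.

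These signs turned. Plin3 differed by -0.06 with array weights, -0.15 within the first hybridisation batch, -0.05 and -0.03 with the macrophage covariates and -0.06 to 0.12 with 1 array left out. Cidec differed by -0.01 with the labelling block and -0.00027 to 0.13 with 1 array left out. The second Lipa probe set differed by -0.03 with array weights, -0.0047 with the labelling block, -0.14 within the first hybridisation batch and -0.13 (without control 4) to 0.24 with 1 array left out. The third differed by -0.32 and -0.30 with the macrophage covariates. The slope of Lipe was -0.02 with the mean of all probe sets, that of Pnpla2 0.11 with the hybridisation block, and that of Hilpda -0.22 to 0.12 (without mutant 4) with 1 array left out. The slope of Abhd5 was -0.29 with the replicate block, -0.09 with the hybridisation block, -0.08 without a genotype term and -0.09 (without control 4) to 0.29 with 1 array left out. The second Abhd5 probe set had slopes of -0.12 with the hybridisation block and -0.01 without a genotype term. With the replicate block the slopes were -0.04 for Lipa, -0.34 for its second probe set and 0.18 for the third Mgll probe set, and the second Lipa probe set had slopes of -0.02 with array weights and -0.13 (without control 4) to 0.27 with 1 array left out. The causes were not tested.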

Other observations

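Lipoprotein lipase, the enzyme that frees fatty acids from lipoproteins outside the cell, had a steep slope on macrophage content. It is named here after its values were seen. Lpl read 13.90, 13.07, 12.93 and 10.09 in mutants 1 to 4, against 11.95, 12.32, 10.06 and 9.69 in controls 1 to 4. The 3 arrays low in macrophage genes, mutant 4 and controls 3 and 4, were the 3 lowest for Lpl. Its slope on the macrophage mean was 1.98 (SE 0.17, adjusted p = 4.35e-04 in limma), from 1.80 to 2.06 with 1 array left out and 1.62 with the replicate block, where it did not pass (adjusted p = 0.392). The genotype difference of Lpl was 1.49 (SE 0.90, adjusted p = 0.461 in limma) and 0.03 at a given macrophage mean. With 1 array left out it was 1.03 (without mutant 1) to 2.29 (without mutant 4). It passed within the first hybridisation batch (1.35, adjusted p = 0.0278 in limma), a fit on replicates 1 and 2 only. The fatty acid carrier gene Fabp4, on the list of fat cell markers, also had a positive slope (0.91, SE 0.18, adjusted p = 0.0142 in limma), with 9.63, 9.48, 9.03 and 8.16 in mutants 1 to 4, against 9.60, 9.90, 9.23 and 7.98 in controls 1 to 4, while the fat cell gene Adipoq had a slope of -0.08 (SE 0.07).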
